A study of Homo sapiens with 8 samples.

Results

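KMT2C (also called MLL3) is a histone methyltransferase, and 190 guides in a pooled Cas9 screen carried numbers in its last coding stretch, out of 1334 guides named for KMT2C and 5995 guides in the pool. Members were the guides whose name begins with KMT2C and whose number lies at 12901 or above, which corresponds to residue 4301 onwards when the number is read as a nucleotide of the coding sequence. That reading is an assumption, since the table leaves the number undefined, and all residue positions below rest on it. The screen was run in KPL-1, an established human breast cancer cell line carrying a doxycycline-inducible Cas9 (iCas9), with 1 library counted at day 0 and 1 at day 14 of doxycycline. The labels give the day 0 pool as WT and the day 14 pool as a knockout of functional domains. Every group here shares the iCas9 line and, apart from day 0, doxycycline treatment. The same line also gave RNA at day 7 from 3 libraries with an empty guide vector (sgEmpty, WT) and 3 with a guide against SETD1A (sgSETD1A, SETD1A knockout).

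KMT2C and its paralog KMT2D each form the core of a large complex that places methyl groups on histone H3, mostly at enhancers, with the demethylase KDM6A and the shared subunits WDR5, RBBP5, ASH2L and DPY30. The carboxyl-terminal part of these proteins holds a pair of phenylalanine- and tyrosine-rich regions (FYRN and FYRC), which fold against each other, and the catalytic SET domain, which lies at the very end of the protein. Cas9 cuts produce both in-frame and frameshift repair products, and tiling a gene with guides asks whether cuts in some parts of a protein are followed by a stronger loss of the cells than cuts elsewhere. Neither the protein nor the guide sequences were used here, so the label of this stretch was not checked against a sequence and no residue is assigned to a domain.

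The pool held 10145466 reads at day 0 and 10255022 at day 14. The 190 KMT2C C-terminal guides had between 37 and 3933 reads each at day 0 (median 1245, against 1531 for the whole pool) and between 93 and 5854 at day 14 (median 1074, against 1289). All 190 had at least 30 reads at day 0 and were measured. The change of a guide is the log2 ratio of its CPM (reads scaled to a common library total) plus 1, day 14 over day 0, after subtraction of the median of 200 guides named HGLibA. These are assumed to be non-targeting controls. Their name is that of a genome-wide guide library, and neither the name nor the table states that they have no target. Each day has 1 library, so the guide data have no replicates and carry no p-values. The counting interval given for a guide is the exact Clopper-Pearson 95% interval from its reads, taken without the added 1, and covers counting error only.

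Most C-terminal KMT2C guides were less abundant at day 14. The median change was -0.98 log2 (95% order-statistic interval over guides -1.13 to -0.88), the middle of the distribution ran from -1.49 to -0.52, and single guides lay between -2.93 and 1.59. Of the 190 guides, 144 were lower by at least 0.5 log2 (75.8%), where 65.3% of all measured guides of the pool were, and 93 were lower by at least 1 log2 (48.9%, exact Clopper-Pearson 95% interval 41.6% to 56.3%), where 46.7% of all guides were. The first share lies above that of the pool, which consists mostly of guides against KMT2-family genes, and the second lies near it. Increases were rare among the members and in the pool. Of the members, 4 (2.11%) were higher by at least 0.5 log2, where 2.57% of all guides were. By at least 1 log2, 2 members were higher (1.05%, interval 0.13% to 3.75%), where 0.351% of all guides were.

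The size of this change rests on the control set. Together the members held 2.62% of all reads at day 0 (exact Clopper-Pearson 95% interval 2.61% to 2.63%) and 2.38% at day 14 (2.37% to 2.39%), while the HGLibA guides went from 3.17% (3.16% to 3.18%) to 5.49% (5.47% to 5.50%). These intervals cover the counting error of reads only, not the spread between guides or between cultures. Without subtraction of the control median the members' median was -0.24 log2, since the HGLibA median itself was 0.74. The HGLibA guides ranged from -1.88 to 1.69, so 165 of the 190 members lay within their range and 25 lay below it. The share of the whole pool below that range was not counted. The lower quartile was -1.66 log2 over all measured guides and -1.49 over the members. Below the fifth percentile of HGLibA guides (-0.74 log2) lay 122 members, or 64.2%, and 612 of the other KMT2C guides, or 53.6%. The share of all measured guides below that percentile was not counted. Of all measured guides, 65.3% were lower by at least 0.5 log2 and 46.7% by at least 1 log2.

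The pool also held 5 guides named for AAVS1, a safe-harbour locus commonly cut as a control. The AAVS1 guides changed by -1.46, -0.74, 0.18, -1.30 and -1.01 log2, with a median of -1.01. The members' median thus lay 0.031 log2 above that of AAVS1, and 51 members were lower than the lowest AAVS1 guide. That guide also lay above the lower quartile of all measured guides, -1.66 log2, and above that of the members, -1.49. Guides against 5 essential genes (PCNA, RPA3, SF3B3, POLR2A and POLR2L, 25 guides) had a median of -3.63 log2 (interval -4.03 to -2.90). None of the 190 members reached that median, which lies far below the lower quartile of all measured guides. The share of all measured guides that reached it was not counted. Single essential-gene guides lay between -7.96 and -0.41 log2, so their range overlaps that of the members. With AAVS1 as the reference in place of HGLibA, a choice made after the data were seen, the members' median was 0.031 log2, with 44 guides lower and 47 higher by at least 0.5 log2. That reference shifts every guide of the pool by the same constant, and the shares of all guides were not counted with it. Under the HGLibA reference the median of all measured guides, -0.92 log2, also lay above that of AAVS1. Whether the cut itself contributes to the members' change was not tested.

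Along the protein the medians of 100-residue windows varied little. The window of residues 4301 to 4400 held 37 guides with a median of -0.91 log2 (interval -1.22 to -0.53). The next, 4401 to 4500, was the lowest, with a median of -1.20 (interval -1.50 to -0.88) over 25 guides, 24 of them below 0. Residues 4501 to 4600 followed with -1.10 (interval -1.33 to -0.86) over 34 guides, of which 22 were lower by at least 1 log2. These intervals overlap one another, and so do those of the windows that follow.

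The windows of the last part of the coding sequence lay in the same range. Residues 4601 to 4700 had a median of -0.98 log2 (interval -1.52 to -0.40) over 34 guides and the widest spread of the windows (SD 0.92 between guides). Residues 4701 to 4800 had -0.88 (interval -1.25 to -0.65) over 31 guides, and residues 4801 to 4900 had the highest median, -0.81 (interval -1.41 to -0.55), over 26 guides. Only 3 guides lay beyond residue 4900, and they changed by -0.91, -1.26 and -0.30 log2. Across the 190 guides the change had almost no relation to position (Spearman rho 0.045, Pearson r 0.051; the guides share both libraries). Windows of 50 residues had medians between -1.31 (residues 4401 to 4450, 16 guides) and -0.75 (residues 4801 to 4850, 16 guides), and -1.27 and -1.24 at residues 4551 to 4600 and 4601 to 4650.

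Medians over shorter runs lay further apart, as medians of fewer guides do. The following pair holds the extremes of many overlapping runs and was chosen after the values were seen. Among runs of 10 successive guides, the lowest median, -1.86 log2, was that of the guides from KMT2C_13776 to KMT2C_13830 (residues 4592 to 4610), where 8 of 10 were lower by at least 1 log2 and none was above 0. The highest, -0.030, was that of KMT2C_13153 to KMT2C_13220 (residues 4385 to 4407), where 4 of 10 were above 0 and 1 was lower by at least 1 log2.

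The 10 guides with the largest decreases lay between residues 4339 and 4610. KMT2C_13804 (residue 4602) went from 1134 to 244 reads, a change of -2.93 log2 (counting interval -3.18 to -2.77). KMT2C_13123 (residue 4375) went from 749 to 164 reads, or -2.88 (-3.20 to -2.70). KMT2C_13017 (residue 4339) went from 1065 to 251 reads, or -2.80 (-3.05 to -2.64). All 3 lay above the median of the essential-gene guides, -3.63 log2. KMT2C_13830 (residue 4610) changed from 1403 to 341 reads (-2.77 log2), and KMT2C_13730 and KMT2C_13734, at neighbouring residues 4577 and 4578, from 1449 to 367 (-2.71) and from 1053 to 265 reads (-2.71). KMT2C_13238 (residue 4413) changed from 1156 to 296 reads (-2.69), KMT2C_13566 (residue 4522) from 1278 to 342 (-2.63), KMT2C_13268 (residue 4423) from 952 to 299 (-2.39) and KMT2C_13799 (residue 4600) from 710 to 233 (-2.32). The lowest guide beyond residue 4700, KMT2C_14103 (residue 4701), changed by -2.25 log2.

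The 6 highest guides lay between residues 4385 and 4782, and the top one was thinly covered at the start. KMT2C_13153 (residue 4385) went from 37 to 230 reads, a change of 1.59 log2 whose counting interval (1.37 to 2.42) was the widest among the members, and it is the member with the fewest day 0 reads. KMT2C_14250 (residue 4750) went from 521 to 2296 reads, or 1.36 log2 (1.24 to 1.52). KMT2C_13967 (residue 4656) went from 508 to 1626 reads (0.90 log2) and KMT2C_14344 (residue 4782) from 636 to 1725 (0.67 log2). KMT2C_13958 (residue 4653) and KMT2C_14081 (residue 4694) were both higher by 0.40 log2, from 321 to 729 and from 1240 to 2768 reads. Counting error was small beside the spread between guides: the median half-width of the counting intervals was 0.12 log2, against an SD of 0.79 between guides. The HGLibA guides had an SD of 0.46. The intervals of 168 members lay below 0 and of 14 above it, a count not made over all guides. By the change alone, 5162 of 5991 measured guides of the pool and 174 of the 190 members were below 0. The 95 guides with at most 1245 day 0 reads had a median of -0.94 log2 and the 95 deeper ones -1.03, and the 4 guides higher by at least 0.5 log2 were all among the former. Day 0 reads enter the ratio, and the relation between them and the change was weak (Spearman rho -0.11 over 190 guides, against 0.021 over the 200 HGLibA guides).

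Guides at almost the same position often differed. Successive members lay a median of 6 nucleotides apart, and the widest gap was 70 nucleotides, from KMT2C_13444 to KMT2C_13514 (residues 4482 to 4505). In 34 pairs of successive guides 1 nucleotide apart, the median difference in change was 0.74 log2 and 13 pairs differed by more than 1 log2. Any pair of members, near or far, differed by a median of 0.73 log2. KMT2C_13733 went from 2727 to 5854 reads (0.34 log2), while KMT2C_13734, 1 nucleotide further, was among the lowest (-2.71 log2). KMT2C_13017 and KMT2C_13019 changed by -2.80 and -0.47 log2, and KMT2C_13829 and KMT2C_13830 by -0.98 and -2.77. The change of a guide was nearly unrelated to that of the next along the gene (Pearson r 0.073, Spearman rho 0.10, over 189 overlapping pairs). Of the 3 pairs of rows that share a name, KMT2C_12952 gave -1.22 and -1.12 log2 and KMT2C_13670 gave -1.28 and -1.25. Both rows of KMT2C_13645 differed more, at -1.19 and -0.66 log2, with counting intervals that did not overlap (-1.28 to -1.10 and -0.72 to -0.59). By the place of the number within its codon, the medians were -1.06 log2 (interval -1.36 to -0.84) at base 1, -0.98 (-1.24 to -0.83) at base 2 and -0.92 (-1.22 to -0.53) at base 3, with overlapping intervals.

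Compared with the rest of the gene, the C-terminal guides were lower by a small margin. The other 1141 measured KMT2C guides had a median of -0.82 log2 (interval -0.86 to -0.76), so the C-terminal median lay 0.17 log2 below it, and 39.1% of them (36.2% to 42.0%) were lower by at least 1 log2 against 48.9% of the members. Guides for residues 3001 to 4300 had a median of -0.77 log2 (interval -0.85 to -0.65; 447 guides), those for residues 1201 to 3000 -0.81 (-0.89 to -0.71; 538 guides) and those for residues 1 to 1200 -0.90 (-1.06 to -0.83; 156 guides), whose interval overlaps that of the members. Of 49 windows of 100 residues in the gene, the 7 C-terminal ones ranked 4, 7, 12, 17, 18, 19 and 31 from the lowest median, and the lowest window of all was residues 301 to 400 (-1.81 log2). The window ranked 18 held only 3 guides. These ranks take no account of guide number, and medians of fewer guides vary more. At the edge of the stretch, KMT2C_12856, KMT2C_12859, KMT2C_12883, KMT2C_12890 and KMT2C_12891 before it changed by -0.58, -0.89, -0.89, -0.62 and 0.49 log2. The first within it, KMT2C_12908, KMT2C_12918, KMT2C_12921, KMT2C_12936 and the first row of KMT2C_12952, changed by -1.22, -1.94, -1.22, -0.34 and -1.22 log2. The final guide, KMT2C_14723 (residue 4908), went from 288 to 398 reads, or -0.30 log2 (counting interval -0.51 to -0.067). With 1 library per day, these differences have no test.

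The corresponding ends of related proteins gave other levels. Guides for KMT2D from residue 5001 on had a median of -1.74 log2 (interval -1.85 to -1.49; 198 guides), 73.2% of them lower by at least 1 log2. Guides for SETD1A, named KMT2F in the pool, from residue 1401 on had -1.29 (interval -1.46 to -1.06; 118 guides). In all 4 KMT2-family genes of the pool the SET domain lies at the end of the protein, so their ends were also set side by side by distance from the highest guide number. Over the last 200 residues the median was -0.85 log2 for KMT2C (interval -1.14 to -0.65; 54 guides), -1.51 for KMT2D (-1.92 to -1.06; 65 guides), -1.29 for SETD1A (-1.48 to -1.06; 82 guides) and -0.26 for SETD1B, named KMT2G (-0.45 to -0.14; 72 guides). Over all guides of each gene the medians were -0.84, -1.43, -1.23 and -0.25 log2 in the same order. In steps of 50 residues back from the end, KMT2C guides had medians of -0.92, -0.77, -0.92 and -0.78 log2 (10, 19, 14 and 11 guides). Those of KMT2D were -1.78, -2.03, -1.34 and -0.88 log2 (15, 17, 19 and 14 guides).

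The KMT2C transcript was present in the same line and was listed under its older symbol MLL3. It measured 23.5, 26.5 and 24.9 TPM in the sgEmpty libraries (24.95 ± 1.54, SD, n = 3) and 28.5, 23.7 and 23.1 TPM in the sgSETD1A libraries (25.1 ± 2.95, SD, n = 3). The groups overlap, with a difference of 0.0050 on the log2(TPM + 1) scale (SE 0.081; limma adjusted p = 0.966) beside a median of 0.073 over all tested genes. BAGE-family copies share sequence with an upstream part of KMT2C, so the level is uncertain. The labels do not say that replicates were separate cultures, and the p-values here cover the spread among the 6 libraries alone, possibly a technical one.

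Of 10 genes of the KMT2C and KMT2D complexes, 9 were tested, because the old symbols MLL2 and MLL4 are each a synonym of both KMT2D and KMT2B in RefSeq. In sgSETD1A 4 were higher, where 28.0% of all tested genes were, and 2 lower, where 13.5% were, and the list's median was 0.041 log2. NCOA6, a coactivator subunit, rose from 11.9 ± 0.20 to 14.6 ± 0.082 TPM (SD, n = 3; 0.27 log2, limma adjusted p = 0.00358), and the core subunit RBBP5 rose by 0.24 log2 (adjusted p = 0.00735), KDM6A by 0.17 (0.0360) and WDR5 by 0.13 (0.0440). PAGR1, a subunit that joins PAXIP1 in this complex, fell from 33.1 ± 1.41 to 25.5 ± 1.56 TPM (SD, n = 3; -0.36 log2, limma adjusted p = 0.00115), and PAXIP1 changed by -0.21 (0.0365). The core subunits ASH2L (-0.059 log2) and DPY30 (0.041 log2) did not pass. The higher count was 2 after median-ratio rescaling of the TPM values, and 2 when any 1 library other than sgSETD1A replicate 1 was left out. The lower count was 1 when replicate 2 or replicate 3 of either group was left out.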

How the data were processed

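The authors deposited unnormalized counts of reads for each guide, and the sources used here do not name the tool that counted them. The row of column totals named no guide, equalled the sum of the rest and was left out. The deposited expression table held TPM values per gene symbol; its last, unnamed row held the column totals and was left out. Per the submitters' processing notes, RSEM 1.3.1, STAR 2.6.0c, bcl2fastq 2.20.0 and the hg19 build were used, with no roles given. RNA depth is unknown, because TPM does not keep it.

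Guide changes used a pseudocount of 1 CPM and a minimum of 30 day 0 reads, which 5991 of 5995 guides passed. Medians, exact intervals and the medians of 100-residue windows (3 or more guides each) were computed in Python 3.11.15 with scipy 1.17.1. Transcripts with a mean of at least 1 TPM (11885) were compared with limma 3.58.1 in R 4.3.3 on log2(TPM + 1), with a mean-variance trend, without a replicate block, and Benjamini-Hochberg adjustment over all of them; an adjusted p under 0.05 was called. Both steps were run on simulated data as a check of the computation. The guide simulation took the HGLibA guides as unchanged on average, so it could not address the choice of reference guides. Singly named guides were the 10 lowest, the 6 highest, the first and the last, with guides at the edge, of near-identical position or in 10-guide runs added after their values were seen. Planned segments by protein motif, and identity with KMT2D, were not analysed here because no protein sequence was used, and 1 set of control guides is not reported here. The members, lists and most settings were chosen with earlier results of these data known.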

Additional observations from a re-analysis of the deposited data

How the results depend on the processing

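The reference set moved the guide results most. Centred on all guides, the members' median was -0.067 log2, with 52 guides lower and 41 higher by at least 0.5 log2, 23 lower and 14 higher by at least 1 log2, and window medians from -0.29 to 0.11. Without centring these values were -0.24, 70 and 27, 31 and 10, and -0.46 to -0.070. Centred on AAVS1 they were 0.031, 44 and 47, 19 and 16, and -0.19 to 0.20; the AAVS1 setting was added after seeing the data. The shares of all guides past these thresholds were not counted at these settings, so the counts have no pool share beside them. A single constant is subtracted from every guide of the pool in each setting. The order of guides and the difference from other KMT2C guides are therefore untouched. That difference ran from -0.17 to -0.14 log2 over the pseudocounts, read minimums, shared names and neighbouring residues tried. The count of guides higher by at least 1 log2 was 1 with a pseudocount of 10 CPM or a minimum of 300 day 0 reads.

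The KMT2C transcript difference was -0.066 log2 after median-ratio rescaling (limma adjusted p = 0.569) and ran from -0.086 to 0.059 when 1 library was left out, being negative without sgEmpty replicate 1 or sgSETD1A replicate 1; it passed in no setting. Over the same omissions 2 to 3 complex genes were higher and 1 to 2 lower. Without a filter on low TPM 1 was lower, and after median-ratio rescaling 2 were higher. With a replicate block 2 were higher and the KMT2C difference was 0.0050 log2 (limma adjusted p = 0.967). Same-numbered libraries deviated together with correlations of 0.0845, -0.10 and 0.17 across genes, so the numbers were not taken as pairs. Guide results had no paired fit, since each day has 1 library.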
